A study of Rattus norvegicus with 2 samples.

Results

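The 10 genes described here carry iron into cells, store it, sense it or build it into iron-sulfur clusters. They were taken by symbol (Tfrc, Tfr2, Steap3, Fth1, Ftl1, Slc11a2, Ireb2, Aco1, Ncoa4 and Isca1), and all 10 were measured among 15037 named genes, each by 1 transcript cluster (the probes that together give a gene its signal). Total spleen RNA of male Sprague-Dawley rats, 6 weeks old at the start, was hybridized to 2 Clariom S rat arrays, 1 for a cocaine group and 1 for a control group. Whether an array held RNA from a single rat or from several is not stated in the sources used here. The cocaine group was injected intraperitoneally with 50 mg/kg cocaine once a day and examined on day 7, and the control group received saline, with the spleens removed 24 h after the last dose. The control was identified by its title, since its treatment text repeats the cocaine protocol. With 1 array per group there was no replicate, so neither an error nor a test can be given, and differences between animals cannot be told apart from differences between the treatments.

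Most cells take up iron as transferrin, which binds the transferrin receptor and is drawn into endosomes. There the iron is released, reduced and passed to the cytosol, where it is used, sent to mitochondria for heme and iron-sulfur clusters, or stored inside the ferritin shell. Iron regulatory proteins sense the supply and bind iron-responsive elements, short hairpins in the mRNAs of the receptor, the ferritins and several other genes. In the spleen of rodents, erythroblasts take up iron for hemoglobin, and macrophages of the red pulp recover it from old red blood cells (RBCs).

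Tfrc and its partners in transferrin iron uptake, the ferritin receptor Ncoa4, the ferritin light chain Ftl1 and the assembly factor Isca1 were lower on the cocaine array, while both iron regulatory proteins and the heavy chain of ferritin were nearly level. Of the 10 genes, 7 had a signal lower by 2-fold or more on the cocaine array, and 0 had one higher by as much. Among all named genes, 4.97% were at least 2-fold lower and 2.28% at least 2-fold higher. The median difference of the 10 genes, cocaine minus control on the log2 scale, was -1.54, a 2.91-fold lower signal, against 0.04 over all named genes. The middle 50% of all named genes lay between -0.27 and 0.33. The lowest of the 10 was Tfrc at -4.10, and the highest was Aco1 at 0.16. Between the 7 lower genes and the other 3 there was a gap as deposited, from Ftl1 at -1.17 to Fth1 at -0.15. Tfr2 was on the lower side only as deposited, since a floor at background, described below, brought its difference to -0.18.

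**Figure D1:**
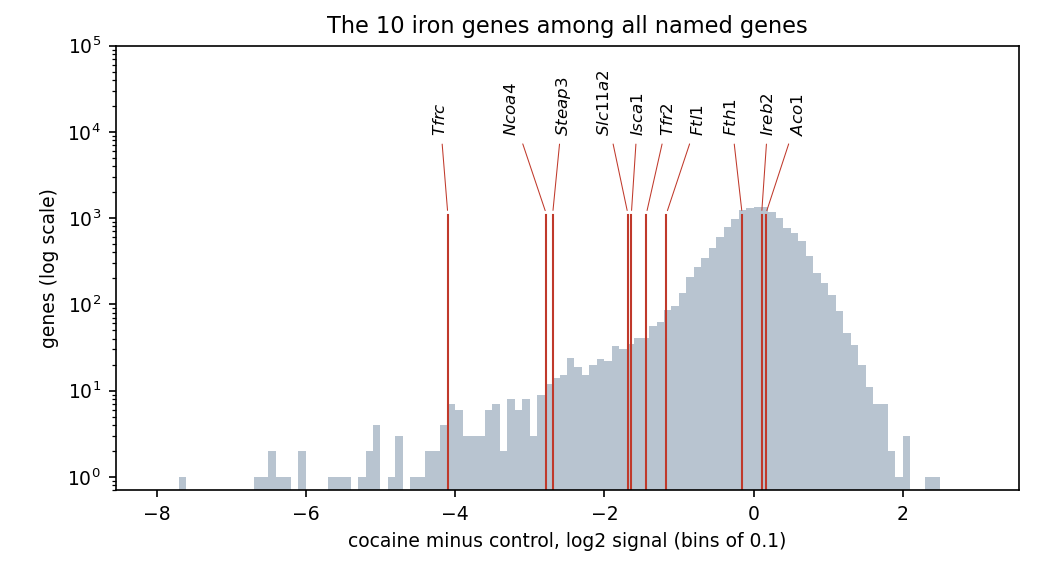
Histogram of the cocaine minus control difference in log2 signal (x axis, bins of 0.1) for all 15037 named genes, with the number of genes on a log scale (y axis) and a red line for each of the 10 iron genes. Tfrc (-4.10) lies in the lower tail and 3 genes, Fth1, Ireb2 and Aco1, lie in the central peak.

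Markers of red blood cell precursors moved with this set. All 13 measured genes of an erythroid list were at least 2-fold lower, and their median difference was -6.03. With signals under the highest background feature (7.76, described with the low end of the scale) raised to it, 12 of the 13 were, and the median was -5.53. The list includes genes, Epb42, Rhag and Alas2 among them, that the study listed among its most decreased in the same data. Its counts are therefore not independent of those results. The median signal of the list was 9.97 on the cocaine array, against 15.33 on the control array. The cocaine signals of 4 genes lay within background, which leaves lower bounds of 73.7-fold for Epb42, a protein of the red cell membrane skeleton, 46.3-fold for Rhag, a membrane channel, and 3.34-fold and 1.27-fold for the transcription factors Gata1 and Klf1. The 7 measured genes of a list of dividing cells were all lower by 2-fold or more (median -2.75), and the median signal of that list was 9.04 on the cocaine array, against 12.29 on the control array. Of 11 red pulp macrophage genes, 0 were past 2-fold in either direction, and their median was -0.37. Among lymphocyte markers, Cd79b of the B cell receptor had signals of 15.72 and 15.08 on the cocaine and control arrays, and Cd3e of the T cell receptor 11.10 and 10.75, so that the markers of the labelled tissue were present on both arrays. Of 2 measured B cell genes and 5 T cell genes, 0 were past 2-fold as deposited, with medians of 0.52 and 0.26. The T cell gene Cd5 was lower on the cocaine array (-0.27). All 6 markers of exocrine pancreas lay within the background features on both arrays. In bulk tissue, fewer cells of a type and less RNA per cell cannot be told apart, and the part of the erythroid and dividing cells in the differences of the iron genes was not tested.

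The low end of the scale was judged by the 23 background features of the array, the highest of which was at 7.76 on both arrays. A signal under this feature is not evidence that a gene is silent, but its size is uncertain. Of the 10 genes, 2 (Tfr2 and Steap3) had a signal under it on the cocaine array, and for these a lower bound was computed with 7.76 in place of that signal. With all signals under the feature raised to it, 6 of the 10 genes were at least 2-fold lower, against 3.68% of all named genes. The highest signals, 19.69 and 19.89 on the cocaine and control arrays, were reached by 0 of the 10 genes. Only 61 of the 23188 transcript clusters lay above Fth1 on both arrays. Whether differences are compressed at such high signals was not tested.

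**Figure D2:**
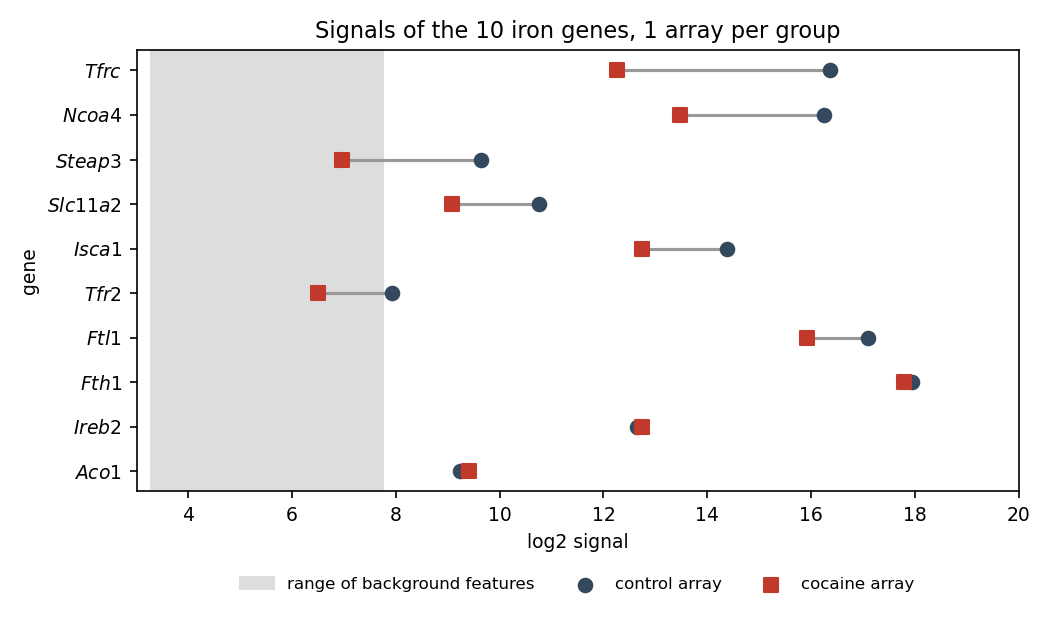
Log2 signal (x axis) of the 10 iron genes (y axis) on the control array (circles) and the cocaine array (squares), 1 array each, with the range of the background features in grey. The cocaine signals of Tfr2 (6.49) and Steap3 (6.95) lie inside the grey range, and the other 8 genes lie above it on both arrays.

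Tfrc encodes the transferrin receptor, which brings iron-loaded transferrin into the cell. Its signal was 12.26 on the cocaine array, against 16.36 on the control array. This was a 17.1-fold lower signal, which ranked 34 from the lowest of the 15037 named genes, and it was well above the background features on both arrays. Over the scalings tried, its difference stayed between -4.24 and -4.0. The named genes with the nearest difference were Tent5c, a poly(A) polymerase, at -4.08, Cdc25b, a phosphatase that drives entry into mitosis, at -4.06, and Tal1, a transcription factor of the blood lineages, also at -4.06. With 2 arrays this likeness is only the nearness of a single value.

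Tfr2 encodes the second transferrin receptor, which senses transferrin iron in hepatocytes and binds the erythropoietin receptor in erythroid cells. Its signal was 6.49 on the cocaine array, against 7.93 on the control array (-1.44). Because the first value lay within the background features and the second only just above them, the lower bound was 1.13-fold, and Tfr2 left the count of 2-fold lower genes once the floor was applied. The hepatocyte markers were themselves at background: both signals of 6 of the 7 lay under the highest background feature, and Ttr had 8.57 on the cocaine array, against 6.12, within background, on the control array.

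Steap3, the ferrireductase of the endosome that prepares iron for export in erythroid precursors, gave 6.95 on the cocaine array, against 9.65 on the control array. The difference was -2.69 (6.47-fold lower as deposited), with a lower bound of 3.70-fold. Slc11a2 encodes the divalent metal transporter that moves the reduced iron out of the endosome. It had signals of 9.07 and 10.75 on the cocaine and control arrays, a 3.21-fold lower signal. The transcripts of Slc11a2 with and without an iron-responsive element were not separated by its single cluster. Thus all 4 genes of the transferrin route were at least 2-fold lower on the cocaine array as deposited, and 3 of them with the floor.

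Ferritin stores iron in a shell made of heavy (Fth1) and light (Ftl1) chains, and these chains differed from each other. Fth1 gave 17.79 on the cocaine array, against 17.94 on the control array (-0.15). Ftl1 had signals of 15.92 and 17.09, a 2.25-fold lower signal. For Fth1 the difference was -0.31 after quantile normalization and -0.42 after a loess correction, still within 2-fold. RefSeq lists 5 pseudogenes and 1 coding copy named after Fth1, and 15 pseudogenes and 6 coding copies named after Ftl1. Whether their transcripts reach the probes was not tested, so both ferritin values are uncertain in this respect.

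Ncoa4 is the cargo receptor that delivers ferritin to the lysosome, where its iron is set free. It gave 13.48 on the cocaine array, against 16.25 on the control array, a 6.84-fold lower signal. The gene of ferritin breakdown was therefore further down on the cocaine array than either ferritin chain (-2.77 against -1.17 and -0.15).

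The iron regulatory proteins, which hold the mRNA of the receptor stable and block translation of the ferritins when iron is scarce, were close to level. Aco1, which switches between an enzyme and an RNA-binding form, had signals of 9.40 and 9.24 on the cocaine and control arrays. Ireb2, which is broken down when iron is plentiful, had 12.75 and 12.64. Their differences of 0.16 and 0.11 lay inside the middle 50% of all named genes. They are controlled largely at the protein level, which arrays do not measure.

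Isca1, a mitochondrial factor of the late steps of iron-sulfur cluster assembly, gave 12.74 on the cocaine array, against 14.38 on the control array. This was a 3.11-fold lower signal.

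**Figure D3:**
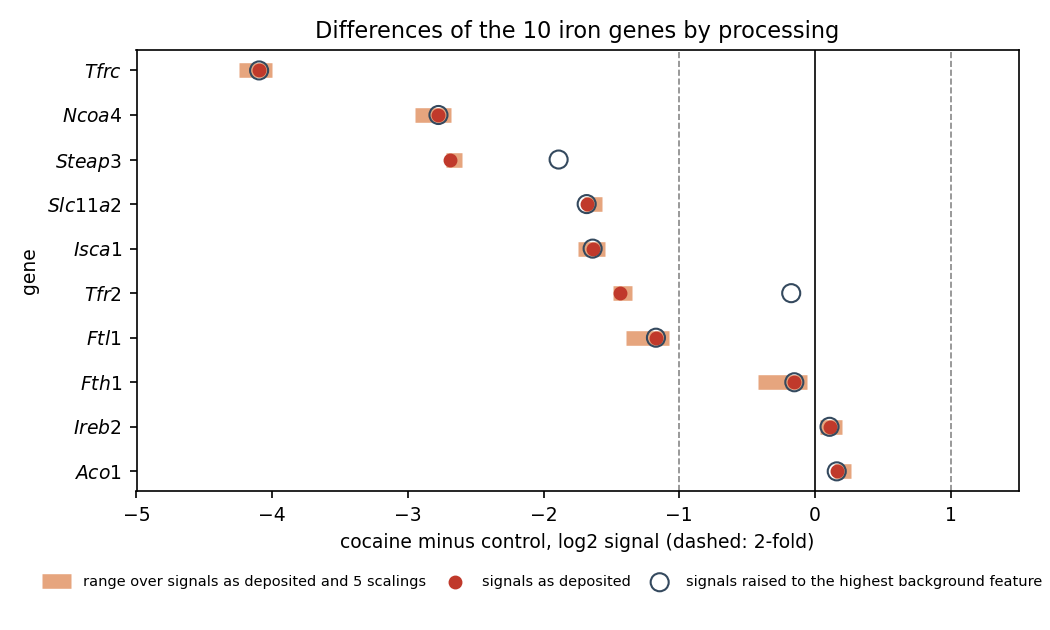
Cocaine minus control difference in log2 signal (x axis) of the 10 iron genes (y axis), as deposited (filled points), over 5 scalings (bars) and with signals raised to the highest background feature (open circles), the dashed lines marking 2-fold. The floor moves Tfr2 from -1.44 to -0.18 and Steap3 from -2.69 to -1.89, and no scaling takes a gene across the 2-fold line.

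Promoters were examined because 7 of the genes were lower together. RefSeq (GRCr8) promoter sequences were found for 8 of the 10 genes, with 2 starts for Slc11a2, and the 250 bases before each start were searched on both strands. The letters GATA, preceded by A or T and followed by A or G, as bound by erythroid GATA factors, matched 0 of these 9 stretches, against 27% of all promoters. The letters ACGTG, the core of the hypoxia response element, matched 3 of 9, against 16.6%, and the longer E-box CACGTG, which contains them, matched 0 of 9, against 5.59%. The 3 stretches with ACGTG belong to Tfrc, Ncoa4 and Isca1, and they are shown with these letters in capitals, 5′ to 3′ on the strand of the gene.
Tfrc, chr11:81690319-81690568, minus strand: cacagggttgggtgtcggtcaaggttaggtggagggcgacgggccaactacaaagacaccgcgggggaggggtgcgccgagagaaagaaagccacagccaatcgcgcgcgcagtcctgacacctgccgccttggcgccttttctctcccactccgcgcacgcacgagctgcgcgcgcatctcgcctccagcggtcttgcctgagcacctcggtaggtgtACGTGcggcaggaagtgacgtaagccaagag
Ncoa4, chr16:7401541-7401790, plus strand: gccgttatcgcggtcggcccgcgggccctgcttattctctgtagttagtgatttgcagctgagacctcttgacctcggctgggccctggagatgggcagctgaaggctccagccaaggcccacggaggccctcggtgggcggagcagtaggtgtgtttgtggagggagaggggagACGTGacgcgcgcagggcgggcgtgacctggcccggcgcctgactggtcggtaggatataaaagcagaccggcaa
Isca1, chr17:4910566-4910815, plus strand: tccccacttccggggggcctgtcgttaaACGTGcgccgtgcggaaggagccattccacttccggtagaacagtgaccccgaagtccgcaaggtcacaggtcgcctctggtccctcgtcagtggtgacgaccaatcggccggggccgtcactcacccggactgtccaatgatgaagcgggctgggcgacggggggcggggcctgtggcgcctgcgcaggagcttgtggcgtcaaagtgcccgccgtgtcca
The match began 31 bases before the start in Tfrc, 75 in Ncoa4 and 222 in Isca1. The antioxidant element TGACNNNGC matched Ncoa4 and Isca1 (2 of 9, against 10.1% of all promoters). The letters CCNCNCCC, where N is any base, are a loose form of the CACCC box that Klf factors bind. They matched 8 of 9, against 42.8%, among them the level gene Ireb2 but not the level gene Aco1. The matched letters in Tfrc, Steap3, Ncoa4 and Isca1 hold no CACCC on either strand. Outside these matches, the stretches of Tfrc and Steap3 do hold GGGTG, its reverse complement, and that of Isca1 holds CACCC. The GC box GGGCGG, which can overlap CCNCNCCC, matched 7 of 9, against 30.5%. Apart from a Slc11a2 start at 43.6%, the stretches held from 58.8% (Tfr2) to 68% G and C, against a median of 51.2% over all promoters. The shares over all promoters were not matched for this G and C content, so the motif counts cannot be separated from it. The GC box was found in level genes (Aco1 and Ireb2) as well as in lower ones. A match describes the letters only and does not show that a factor binds.

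Of 11 further genes of the transferrin cycle, 2 were at least 2-fold lower. Marchf8, a ubiquitin ligase that marks the transferrin receptor for degradation, gave 8.05 on the cocaine array, against 9.83 on the control array (-1.78), and Snx3, a sorting protein that recycles the receptor, 15.56 and 16.87 (-1.31). Ap2m1 of the clathrin adaptor (-0.35) and the lysosomal channel Mcoln1 (-0.61) were within 2-fold. The hemochromatosis gene Hfe lay within background on both arrays (4.74 and 5.72) and is given no direction. The median of the list was -0.35.

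As a list, other routes of iron entry did not share the direction of Tfrc, Tfr2, Steap3 and Slc11a2. The median of 7 genes was 0.51, with 1 at least 2-fold lower and 1 at least 2-fold higher. With the background floor the median was 0.02, and 1 was lower and 0 higher by 2-fold. The genes past 2-fold as deposited were both zinc transporters of the same family that also carry iron. Slc39a8 had signals of 7.80 and 9.60 (-1.80), and Slc39a14 had 8.52 on the cocaine array and 7.20, within background, on the control array (1.31, at least 1.69-fold higher). Cybrd1, a ferrireductase of the plasma membrane (0.54), and Slc11a1, the macrophage relative of Slc11a2 (0.51), were within 2-fold.

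Genes that export iron and recover it from heme had a median of -0.56 over 15 genes, 4 of which were at least 2-fold lower and 0 at least 2-fold higher. Ceruloplasmin, Cp, which oxidizes exported iron, lay at the threshold, with 14.28 on the cocaine array, against 13.29 on the control array. Its difference was 0.9979 as deposited and from 0.88 to 1.09 over the scalings, 3 of which took it past 2-fold. Blvrb, a biliverdin and flavin reductase of red cells, gave 7.43, within background, on the cocaine array, against 11.20 on the control array (-3.77, at least 10.9-fold lower). Bach1, the heme-sensing repressor, was at -2.01, the heme and drug exporter Abcg2 at -1.29, with a cocaine signal within background, and Blvra, the main biliverdin reductase, at -1.25. Slc40a1, the iron exporter ferroportin, had signals of 14.63 and 15.21, a difference of -0.58. Heme oxygenase, Hmox1, which opens the heme ring, had 14.59 and 14.96. The genes lower by 2-fold thus did not include the exporter or the oxygenase, both of which also stand in the red pulp macrophage list.

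Genes listed under iron sensing and chaperones were within 2-fold. Among 5 genes, the median was -0.38, and 0.0005 with the background floor. Herc2, a ubiquitin ligase, was at -0.59, the hypoxia factors Epas1 at -0.38 and Hif1a at 0.22, and the iron chaperone Pcbp2 at 0.13. The mitochondrial ferritin Ftmt lay within background on both arrays (4.67 and 5.14) and is given no direction. Of 7 genes of the hepcidin pathway, which sets iron export throughout the body, the BMP receptor Bmpr1a was at least 2-fold higher (8.77 against 7.74 on the control array, 1.03, and just under 1 after a loess correction). Its control signal was within background, and the bound was 2.02-fold. Smad4 (0.57) was within 2-fold, as was Bmp6 (0.40, and 0.23 with the background floor), whose control signal of 7.58 was within background. Another 4 of the 7 genes lay within background on both arrays, among them hepcidin itself (Hamp, 6.36 and 5.82).

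Genes of mitochondrial iron and heme synthesis differed as a list from those of iron-sulfur assembly. Of 12 genes of mitochondrial iron and heme, 10 were lower by 2-fold or more, and the median was -3.79. These 12 include Alad, Uros and Urod, heme enzymes of the cytosol. Slc25a37, the iron carrier of the inner membrane, was lowest (-6.38), followed by ferrochelatase, Fech (-5.02), Alas2, the first enzyme of erythroid heme synthesis (-4.49), and Abcb10 (-4.34), a transporter of the inner membrane. By contrast the 15 measured genes of mitochondrial iron-sulfur assembly had a median of -0.30, with 3 at least 2-fold lower and 2 at least 2-fold higher. Glrx5, a glutaredoxin that hands on new clusters, had signals of 10.61 and 13.66 (-3.05), and Bola3, a partner in their delivery, 10.82 and 12.11 (-1.28). The third lower gene was the scaffold Iscu at -1.03, which 3 of the scalings brought within 2-fold (-0.93 at the least). Fdx1, a ferredoxin (1.07), and Ndufab1, the acyl carrier protein that stabilizes the assembly complex (1.25), were higher. The cytosolic assembly genes showed 0 of 10 past 2-fold in either direction, from Ciao1 at -0.90 to Glrx3 at 0.35, with Ndor1 (-0.52) and Ciao2a (-0.37) between them. Isca1, which was not counted in this list, was lower by 2-fold or more, while 10 of the 15 listed factors were not past 2-fold, 4 of which had both signals within background and can show no direction.

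Genes whose mRNAs carry iron-responsive elements had differences from -4.49 to -0.15, and 5 of 9 were at least 2-fold lower. These were Alas2, Tfrc, Slc11a2, Ftl1 and Cdc42bpa, a kinase (-1.25). Among mRNAs with the element before the coding region, Alas2 and Ftl1 were lower by 2-fold or more, and Fth1, Slc40a1 and Epas1 were within 2-fold. Among those with it after the coding region, Tfrc, Slc11a2 and Cdc42bpa were lower by as much, while Cdc14a, a phosphatase, gave 8.58 on the cocaine array, against 8.74 on the control array (-0.16). The list shares 4 genes with the 10 iron genes.

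**Figure D4:**
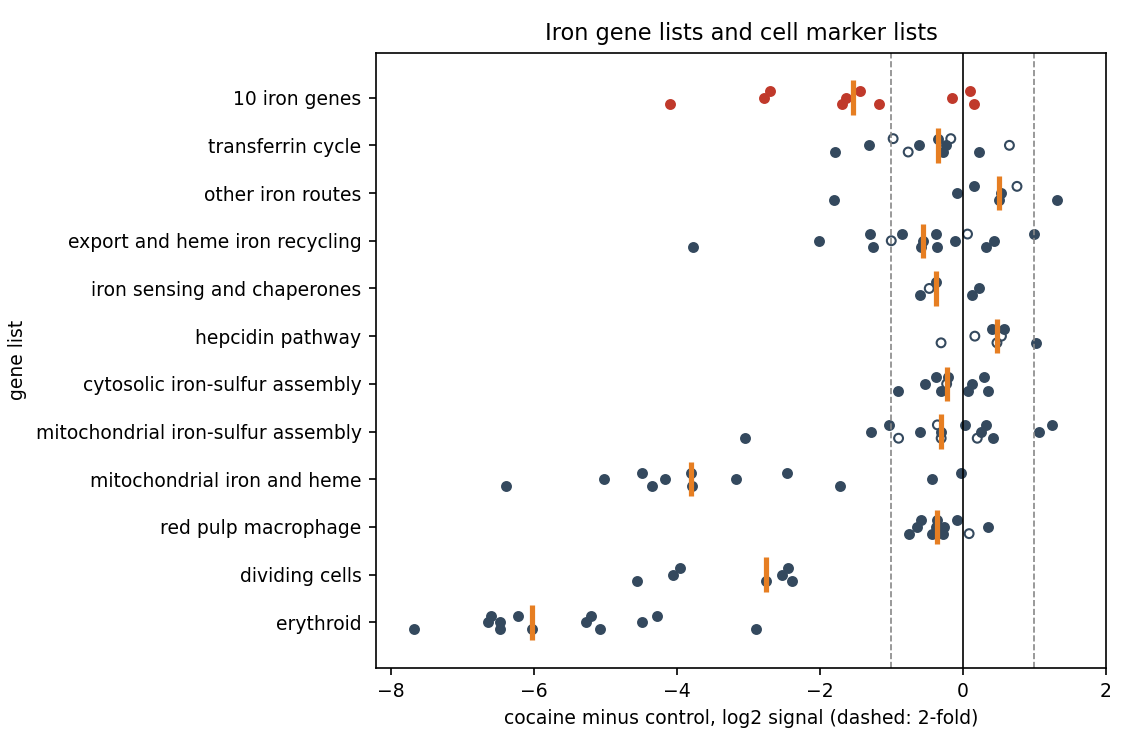
Cocaine minus control difference in log2 signal (x axis) for each measured gene of the 10 iron genes (red), other iron lists and 3 cell marker lists (y axis), with an orange bar at each median, open circles for genes with both signals within background and dashed lines at 2-fold. The 10 iron genes (median -1.54) lie between iron-sulfur assembly (-0.30) and mitochondrial iron and heme (-3.79), and the erythroid markers lie lowest (-6.03).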

How the data were processed

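The authors purified total RNA with TRIzol and RNeasy columns with DNase I, checked its integrity on a BioAnalyzer and hybridized it to Clariom S arrays. Values were deposited as log2 signals of array features. The sources used here do not state how background, summarisation and normalization were handled. Since no build is named for the array, probes are given no genome positions. Of 24834 features, 1646 controls were left out, and the 23188 transcript clusters held 15049 with 1 symbol (15037 genes). For 10 symbols with several clusters the highest mean signal was used, and 0 columns were left out. The median cluster signal was 6.97 on both arrays. Differences were cocaine minus control log2 signals, called at 2-fold, the fold the study counted. All 10 genes were named, and from each other iron list 4 genes at most. These were the genes that differed furthest, with genes within background on both arrays taken last. Any past 2-fold against their list and the 3 nearest to Tfrc were named too. The cell marker lists are given by their counts or medians and by a few of their genes, not always those that differed furthest. Other genes were named after their values were seen. The members and lists were chosen with earlier results of these data known. Some genes of the lists are not analysed here. Alternatives were 5 scalings (a loess span of 0.3), floors, filters, thresholds of 1.5-fold and 4-fold, and the mean over clusters. The procedure was tested on simulated data. Python 3.11.15, numpy 2.4.6, pandas 2.3.3, statsmodels 0.14.6 and matplotlib 3.10.9 were used.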

Additional observations from a re-analysis of the deposited data

How the results depend on the processing

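The number of iron genes at least 2-fold lower was 7 under each of the 5 scalings, the floor at the 25th percentile, the 3 filters, the threshold of 1.5-fold and the mean over clusters. It was 6 with the floor at the highest background feature and 3 at 4-fold. The median of all genes shifted by no more than 0.09 under any scaling. Over all named genes, 1765 were lower and 1748 higher at 1.5-fold, and 246 and 5 at 4-fold. The count of higher genes was 147 with the background floor, 222 with a filter at the array median and 191 with a filter at the background feature. Of 664 values of single genes under the alternatives, 638 stayed on their side of 2-fold without moving by 1.5 times. In 12 the sign changed, over 9 genes. Of these, 1 had been past 2-fold, Alb, at 0.0005 with the background floor (-2.20 as deposited, both signals within background). The other 11 had been within 2-fold and include Pcbp2 (-0.04 after a loess correction). With 1 array per group, leaving out a replicate was not possible, and no paired analysis was possible because there was 1 array per group. Signals near background and the single array of each group limit every value.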

Other observations

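Several iron genes have a close relative or partner with another difference, in pairs that were picked after their values were seen and given no test. Slc25a37, the mitochondrial iron carrier used by erythroid cells, was at -6.38, while its widely expressed relative Slc25a28 had signals of 9.29 and 9.31 on the cocaine and control arrays (-0.02, and up to 0.09 under a scaling). Alas2, the erythroid enzyme, was at -4.49 and its housekeeping counterpart Alas1 at -0.42. Slc11a2 was at -1.68 and Slc11a1 at 0.51. The assembly factor Isca1 was at -1.64 and its partner Isca2 at -0.30, with signals of 8.62 and 8.91. Blvrb was at -3.77 and Blvra at -1.25. Bach1, the repressor of antioxidant elements, was at -2.01, and Nfe2l2, the activator of the same elements, at 0.44. In the pairs of Slc25a37, Alas2, Slc11a2, Isca1 and Bach1, the partner was within 2-fold.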
